A study of Mus musculus with 8 samples.

Results

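Toll-like receptors and their co-receptors were followed in dendritic cell (DC)-restricted progenitors (CDPs), the bone marrow (BM) cells from which conventional and plasmacytoid DCs descend. The set was 10 genes out of 16119 in the deposited table of counts: the receptors Tlr1, Tlr2, Tlr4, Tlr6, Tlr7, Tlr9 and Tlr13, the chaperone Unc93b1, and the co-receptors Cd14 and Ly96. They were chosen by symbol in the GENCODE vM21 annotation, and all 10 passed the filter on low counts that left 15837 genes for testing.

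CDPs had been flow-sorted from C57BL/6 mice as cells without lineage markers, intermediate for c-Kit, low for Sca-1, and positive for CD115 and Flt3, with 50000 cells for each replicate. Of 8 libraries, 4 came from diet-induced obese mice fed a high-fat diet (HFD; 60 kcal% fat), which the labels call DIO and give as 16 weeks on the diet. The other 4 came from control mice (CF; 10 kcal% fat), labelled DIO-Control and matched in age, for which the labels give no time on the diet. The methods of the study describe both groups as C57BL/6J males, with no transgene and no allergen named for these libraries. Whether a replicate was 1 mouse or a pool is not given in the sources used here, so the p-values measure the spread between these replicates alone.

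Toll-like receptors are membrane proteins that bind microbial molecules through leucine-rich repeats and signal through adaptors such as MyD88 to NF-kB, MAP kinases and interferon regulatory factors. Tlr1, Tlr2, Tlr4 and Tlr6 act mainly at the cell surface on lipids and lipoproteins, whereas Tlr7, Tlr9 and Tlr13 act in endosomes on nucleic acids and depend on Unc93b1 to get there. Conventional and plasmacytoid DCs carry different sets of these receptors, and progenitors in BM are also known to express some of them.

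The promoter windows of 4 receptors are shown because their genes stood for the patterns described: Tlr1 was the member whose diets did not overlap, Tlr2 and Tlr13 varied together, and Tlr9 varied with Unc93b1. The sequences are from RefSeq (GRCm38.p6) and hold up to 250 bases before the RefSeq start, cut back to the bases before the first exon that GENCODE annotates. Capitals mark GAGGAA, the core letters of a site for PU.1, a factor of myeloid and DC development. The windows are chr5:64933564-64933808 on the minus strand for Tlr1, chr3:83841768-83841858 on the minus strand for Tlr2, chrX:106143025-106143203 on the plus strand for Tlr13 and chr9:106222348-106222597 on the plus strand for Tlr9. Each is written 5′ to 3′ on the strand of its gene.
Tlr1: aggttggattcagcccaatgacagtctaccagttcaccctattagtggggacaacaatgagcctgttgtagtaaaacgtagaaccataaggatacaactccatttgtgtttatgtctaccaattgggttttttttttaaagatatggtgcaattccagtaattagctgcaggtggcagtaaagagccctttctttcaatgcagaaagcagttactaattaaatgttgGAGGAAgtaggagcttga
Tlr2: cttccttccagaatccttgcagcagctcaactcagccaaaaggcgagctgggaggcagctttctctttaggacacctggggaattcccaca
Tlr13: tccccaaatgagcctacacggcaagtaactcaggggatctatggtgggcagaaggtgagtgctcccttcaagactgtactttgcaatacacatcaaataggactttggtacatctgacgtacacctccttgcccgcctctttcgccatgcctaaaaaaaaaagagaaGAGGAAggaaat
Tlr9: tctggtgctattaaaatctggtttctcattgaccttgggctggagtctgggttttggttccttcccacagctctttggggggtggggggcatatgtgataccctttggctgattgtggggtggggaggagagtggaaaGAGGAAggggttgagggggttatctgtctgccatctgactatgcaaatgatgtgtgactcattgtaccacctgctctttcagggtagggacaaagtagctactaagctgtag

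Searched on both strands, GAGGAA occurred 1 time in each of the Tlr1, Tlr13 and Tlr9 windows, at -23, -83 and -112 from the RefSeq start. It was not in the Tlr2 window, nor in the 201 bases of the Tlr6 window. Over all 32851 RefSeq promoters, windows of the same length and place held it in 22.7% of cases for Tlr1, 17.1% for Tlr13, 23.3% for Tlr9, 9.22% for Tlr2 and 18.8% for Tlr6. The C/EBP letters TTGCNNAA and the interferon response element (GAAA, any 2 bases, GAAA) were found in none of these 5 windows, against 3.75% to 9.56% and 1.16% to 2.98% of all promoters, respectively. The windows of Tlr4, Tlr7, Unc93b1, Cd14 and Ly96 were not matched.

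The libraries held between 28203651 and 48409689 counts. Values are given as CPM, the counts of a gene relative to the library total, scaled by TMM, a normalization for library composition, and p-values are from edgeR's quasi-likelihood test with Benjamini-Hochberg adjustment over the 15837 genes. Of the surface markers of the sort, Kit lay between 34.2 and 53.6 CPM, Csf1r (CD115) between 79.4 and 133 and Ly6a (Sca-1) between 1.37 and 3.25. Flt3 lay between 227 and 378 CPM in 7 libraries and at 88.8 in HFD replicate 1. This library also stood apart in markers of other cells. The summed CPM of 15 neutrophil markers, all of them detected, was 20909.8 in HFD replicate 1 and 981 to 3651 in HFD replicates 2 to 4, against 1994 in CF replicate 1 and 6085 to 6700.3 in the other CF replicates. Each of the 15 was highest in HFD replicate 1. S100a9 led the list, with 5110.5 CPM in that library. The diet comparison of each member is therefore given with and without HFD replicate 1.

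The diets did not differ in any member at an adjusted p below 0.05 in edgeR. Over all genes, 67 of 15837 (0.423%) were called lower in HFD and 0 (0%) higher, while DESeq2 called 498 lower and 71 higher. The count of lower calls varied with the libraries included. By edgeR it was 166 without HFD replicate 1, 154 without CF replicate 4, and 0 or 1 without any one of the other 6. In those last 6 fits, 731 to 870 genes were lower at an unadjusted p below 0.05. Limma voom also called 0 of the 10 members, and DESeq2 0 of the 9 to which it gave an adjusted p (all but Tlr13). At an unadjusted p below 0.05, 1 member, Tlr1, was lower in HFD and none was higher, against 845 genes lower (5.34%) and 510 higher (3.22%) over the whole table. All members are protein-coding, and the 11775 protein-coding genes tested held 4 of the 67 calls (0.034%), and before adjustment 197 of them were lower (1.67%) and 437 higher (3.71%) at the same threshold. When HFD replicate 1 was left out, 5 members (Tlr1, Tlr2, Tlr4, Tlr6 and Tlr13) were lower at an unadjusted p below 0.05, against 9.76% of the genes tested in that fit. HFD replicate 1 was the highest library for all of these but Tlr1, so leaving it out lowers their values by itself. The share of protein-coding genes in that fit was not computed. Every HFD library lay below every CF library in 1 member, again Tlr1, against 3.58% of all genes and 0.951% of protein-coding ones, and above in none, against 2.58% and 2.81%. On the log2 scale, 4 members had a difference above 0 and 6 below it, where 40.3% of all genes and 35.4% of protein-coding ones were below, but Tlr2, Unc93b1 and Ly96 changed side when library size alone was used for scaling, which moved the median of all genes from 0.05 to 0.25. The median difference was -0.01 over the members and 0.05 over all genes. In RNA from sorted cells, fewer cells of a type and less RNA per cell cannot be told apart.

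**Figure D1:**
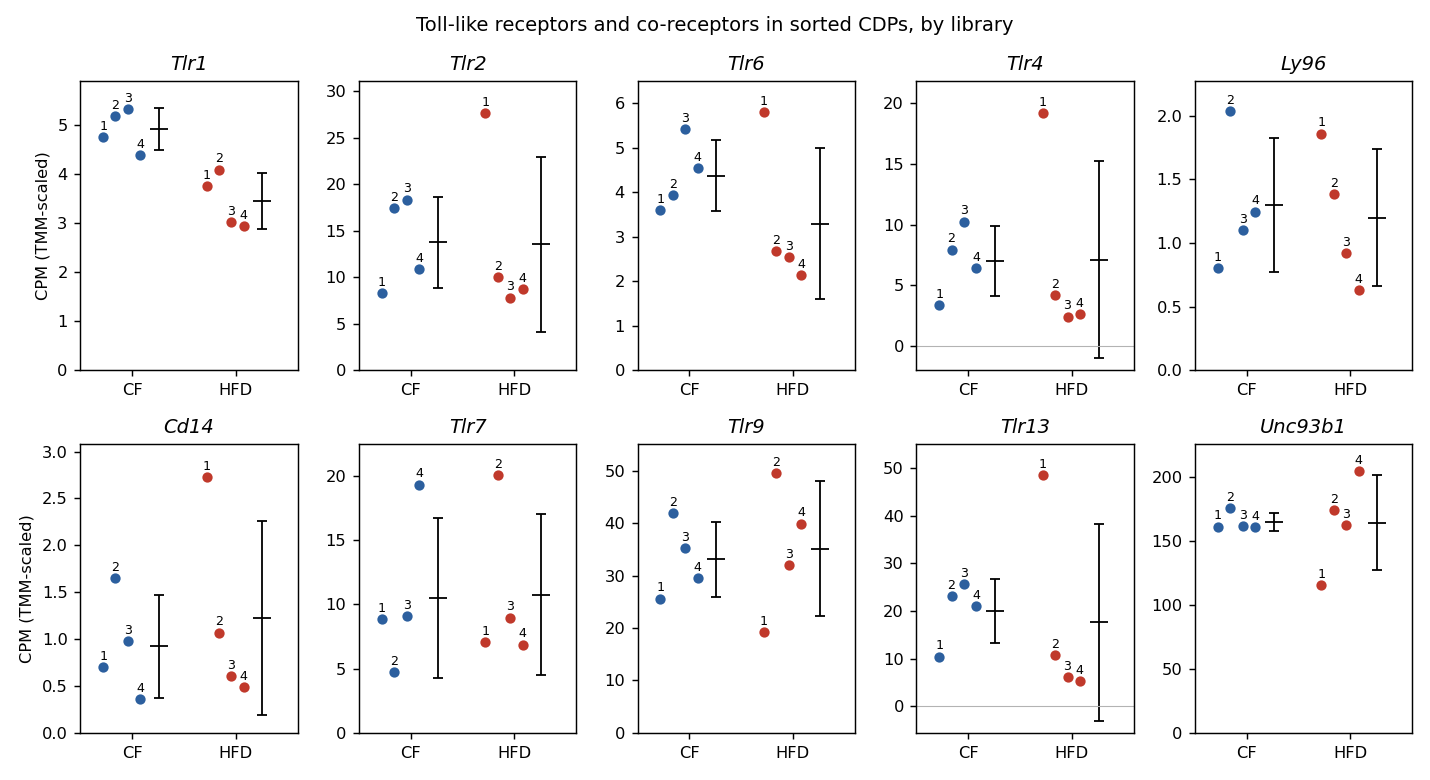
Level of each member in every library, in CPM scaled by TMM (y axis), for CF (blue) and HFD (red); numbers are replicates, and the bars show the mean ± SD of 4 replicates. The diets do not overlap for Tlr1, and HFD replicate 1 is the highest library for Tlr2, Tlr4, Tlr6, Tlr13 and Cd14.

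Tlr1 pairs with Tlr2 to bind triacylated lipoproteins. It had 3.75, 4.09, 3.02 and 2.94 CPM in HFD replicates 1 to 4, and 4.75, 5.18, 5.32 and 4.39 CPM in CF replicates 1 to 4. Every HFD library lay below every CF library, with means of 3.45 ± 0.56 and 4.91 ± 0.42 (SD, n = 4 each). The log2 fold change was -0.51 ± 0.17 (SE), which did not pass adjustment (edgeR, adjusted p = 0.34). The exact two-sided permutation test over 70 draws gave p = 0.029, the smallest that 4 replicates against 4 allow. For the other 9 members the same exact permutation test gave p from 0.20 to 0.94. Counts for Tlr1 were 115 to 184 in a library. Its fold change kept its sign in all 19 alternative analyses, from -0.60 to -0.31, with adjusted p from 0.13 to 0.86. HFD replicate 1 was not the highest library here, and without it the value was -0.55 (edgeR, adjusted p = 0.22). Tlr1 lies on chromosome 5 of GRCm38 (64924679 to 64933563, minus strand), and no other annotated gene overlaps it or any other member.

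Its neighbour Tlr6 (chromosome 5, 64952031 to 64960097, minus strand) pairs with Tlr2 to bind diacylated lipoproteins. Tlr1 and Tlr6 share sequence: 340 of the 3677 stretches of 75 bases in Tlr6 exons (9.25%) also occur in Tlr1, and 10.6% of those of Tlr1 occur in another gene. With uniquely mapped pairs of 75-base reads counted, reads from these stretches could be lost from both genes, so the values of Tlr1 and Tlr6 are less certain than those of the other members, none of which shared such a stretch.

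Tlr6 had 5.81, 2.67, 2.54 and 2.14 CPM in HFD replicates 1 to 4, and 3.59, 3.94, 5.42 and 4.55 in CF replicates 1 to 4. The highest of all libraries was HFD replicate 1, and the other 3 HFD replicates were the lowest. With all libraries the log2 fold change was -0.41 ± 0.33 (edgeR, adjusted p = 0.83), and without HFD replicate 1 it was -0.84 (adjusted p = 0.11, with a range of 0.080 to 0.999 over the alternatives).

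Tlr2 is the shared partner in both pairs (chromosome 3, 83836272 to 83841767, minus strand). It had 27.6, 10.0, 7.79 and 8.71 CPM in HFD and 8.27, 17.4, 18.3 and 10.9 CPM in CF replicates 1 to 4. HFD replicate 1 was the highest library, CF replicates 2 and 3 followed, and CF replicate 1 lay among the lower HFD libraries. Means were 13.5 ± 9.43 and 13.7 ± 4.92 (SD, n = 4 each), and the log2 difference of -0.02 ± 0.45 was smaller than its error (edgeR, adjusted p = 0.998). Leaving out HFD replicate 1 gave -0.63 (adjusted p = 0.34, with a range of 0.10 to 0.999 over the alternatives). Of the 3 receptors for lipoproteins, none passed the test in either analysis.

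Tlr4 binds bacterial lipopolysaccharide in complex with MD-2, the product of Ly96, to which CD14 hands the ligand. Tlr4 (chromosome 4, 66827584 to 66930284, plus strand) had 19.2, 4.15, 2.39 and 2.62 CPM in HFD replicates 1 to 4. In CF replicates 1 to 4 it had 3.33, 7.92, 10.2 and 6.39 CPM. In HFD replicate 1 it was 6.30-fold above the mean of the other HFD replicates, which with CF replicate 1 were the lowest libraries. The means were almost equal, 7.10 ± 8.12 in HFD and 6.97 ± 2.89 in CF (SD, n = 4 each), 0.02 ± 0.70 apart on the log2 scale (edgeR, adjusted p = 0.999). Without HFD replicate 1 the value was -1.19 (adjusted p = 0.18), and without both HFD replicate 1 and CF replicate 1 it was -1.42 and passed the test (adjusted p = 0.040). These were the highest HFD and the lowest CF library for Tlr4, so leaving both out lowers the value by itself. Over the alternatives the adjusted p ran from 0.040 to 0.999.

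Ly96 (chromosome 1, 16688051 to 16709611, plus strand) had 1.86, 1.38, 0.92 and 0.63 CPM in HFD and 0.80, 2.04, 1.102 and 1.25 in CF replicates 1 to 4. The diets overlapped, with the highest value in CF replicate 2, and differed by -0.12 ± 0.41 on the log2 scale (edgeR, adjusted p = 0.98). Without HFD replicate 1 the difference was -0.41 (adjusted p = 0.68, with a range of 0.55 to 0.999 over the alternatives). Cd14 (chromosome 18, 36725067 to 36726798, minus strand) was the member with the fewest reads, 14 to 85 in a library. It had 2.73, 1.07, 0.60 and 0.49 CPM in HFD and 0.70, 1.65, 0.98 and 0.36 in CF replicates 1 to 4. HFD replicate 1 was again the highest library, and the log2 fold change was 0.40 ± 0.64 with it and -0.36 without it (edgeR, adjusted p = 0.93 and 0.80, with a range of 0.58 to 0.999 over the alternatives). Neither co-receptor passed the test.

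**Figure D2:**
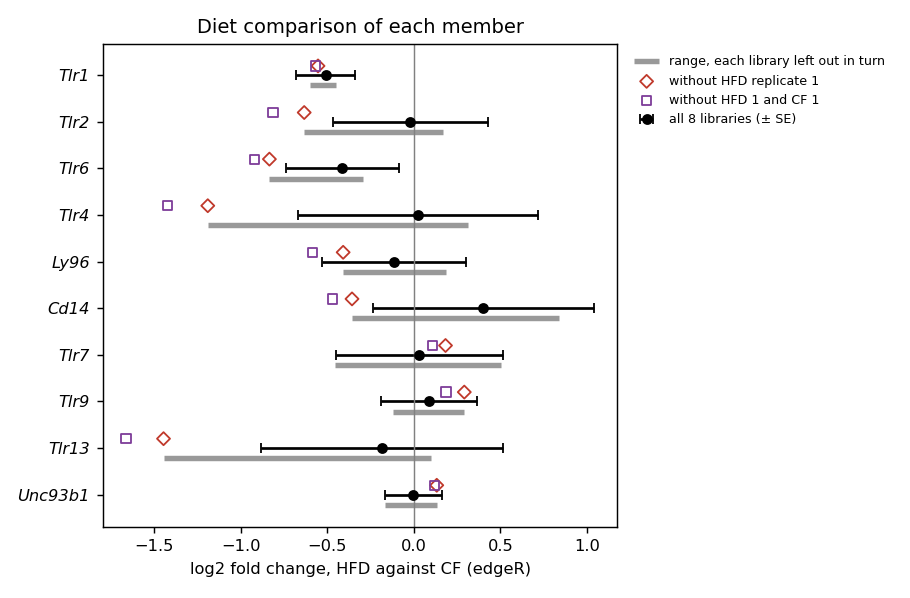
Log2 fold change of each member, HFD against CF (x axis), from edgeR with all 8 libraries (black, ± SE), without HFD replicate 1 (diamonds), without HFD replicate 1 and CF replicate 1 (squares), and over the 8 analyses that each leave out 1 library (grey bars, lowest to highest). Tlr1 stays below 0 throughout, while Tlr4 runs from -1.19 to 0.31 over the grey bar and Tlr13 from -1.45 to 0.10.

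Tlr13 recognizes a stretch of bacterial ribosomal RNA in endosomes, and lies on chromosome X (106143204 to 106160493, plus strand). It had 48.4, 10.8, 6.11 and 5.22 CPM in HFD and 10.4, 23.1, 25.6 and 21.1 CPM in CF replicates 1 to 4. As for Tlr4, HFD replicate 1 was highest, 6.58-fold above the mean of the other HFD replicates, and CF replicate 1 lay with those. The log2 fold change was -0.19 ± 0.70 (edgeR, adjusted p = 0.98). It was -1.45 without HFD replicate 1 (adjusted p = 0.11) and -1.66 without HFD replicate 1 and CF replicate 1, where it passed the test (adjusted p = 0.018). Again the pair left out was the highest HFD and the lowest CF library, which lowers the value by itself. Over the alternatives that gave one, the adjusted p ran from 0.018 to 0.99994.

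In those 6 remaining libraries the neutrophil markers were also apart, at 981 to 3651 summed CPM in HFD and 6085 to 6700.3 in CF. Across all 8 libraries, Tlr13 and the neutrophil sum gave the same order of libraries except for CF replicates 2 and 3, and Tlr4 the same order except for that pair and HFD replicates 3 and 4. The summed CPM of 8 granulocyte progenitor markers, led by Mpo, was 1291 in HFD replicate 1, 223 to 425 in HFD replicates 2 to 4 and 338 to 751 in CF. All 8 were highest in HFD replicate 1. That of 12 monocyte markers, led by Lyz2, was 2566, 431 to 1129.5 and 782 to 1571, but 5 of the 12 were highest in HFD replicate 1. Without Lyz2, a sum chosen after seeing the data, the values were 857, 316 to 818 and 580 to 958, so that HFD replicate 1 was not the highest library. Ccr2, a chemokine receptor of monocytes named after its values were seen, had 70.3 CPM in that library and 103 to 118 in CF. The part of these cells in the levels of Tlr2, Tlr4, Tlr6, Tlr13 and Cd14 was not tested. None of the markers in these 3 lists was called between the diets by edgeR.

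**Figure D3:**
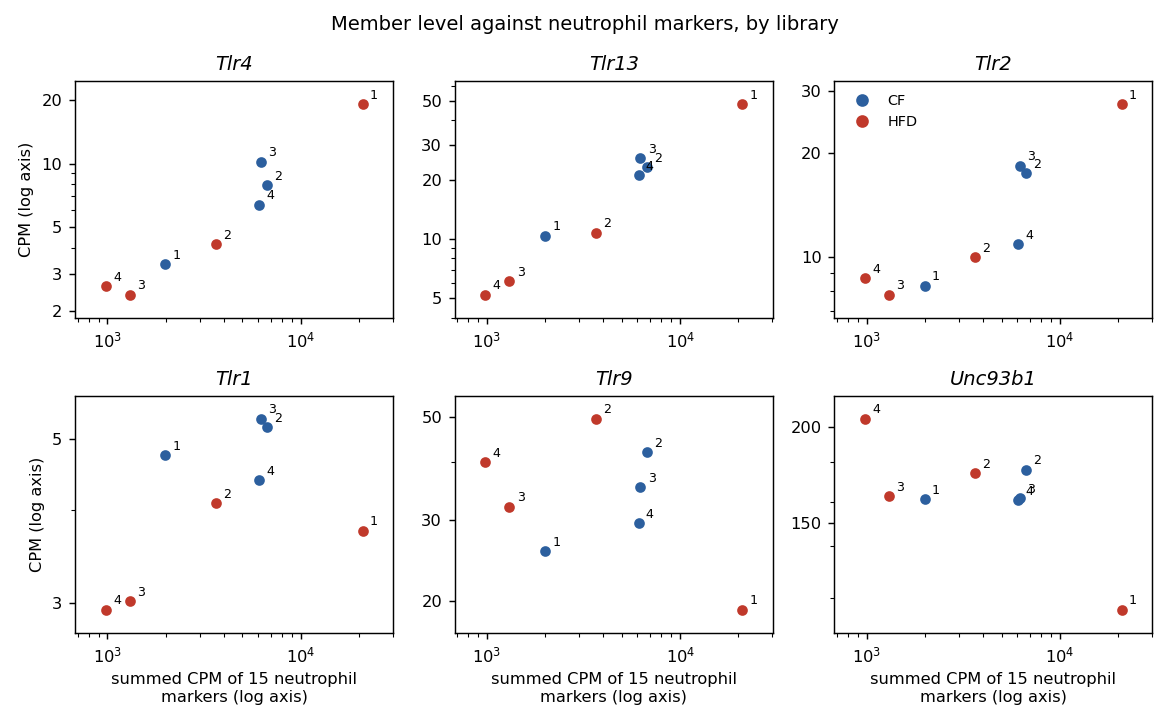
Level of 6 members (y axis, CPM, log axis) against the summed CPM of 15 neutrophil markers (x axis, log axis), with 1 point for each library (CF blue, HFD red, numbered by replicate). Tlr4, Tlr13 and Tlr2 are highest where the sum is highest, in HFD replicate 1 at 20909.8, whereas Tlr9 and Unc93b1 are lowest there.

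Tlr9 senses DNA rich in unmethylated CpG and is a hallmark receptor of plasmacytoid DCs. It lies on chromosome 9 (106222598 to 106226883, plus strand). It had 19.2, 49.6, 32.01 and 39.9 CPM in HFD and 25.6, 42.0, 35.3 and 29.5 CPM in CF replicates 1 to 4. HFD replicate 1 was the lowest library, at 0.47 of the mean of the other HFD replicates, and HFD replicate 2 the highest. The diets overlapped and differed by 0.09 ± 0.28 on the log2 scale (edgeR, adjusted p = 0.97), and by 0.29 without HFD replicate 1 (adjusted p = 0.53, the lowest over the alternatives, which reached 0.999).

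Tlr7, the sensor of single-stranded RNA on chromosome X (167304929 to 167330558, minus strand), had 7.09, 20.04, 8.97 and 6.87 CPM in HFD and 8.86, 4.71, 9.10 and 19.3 CPM in CF replicates 1 to 4. A single library in each diet, HFD replicate 2 and CF replicate 4, held more than the rest of its group. The means were 10.7 ± 6.27 and 10.5 ± 6.21 (SD, n = 4 each), and the log2 fold change was 0.03 ± 0.48 (edgeR, adjusted p = 0.997). Without HFD replicate 1 it was 0.18, without HFD replicate 2 it was -0.46, and without CF replicate 4 it was 0.51. Tlr7 did not rank the libraries as Tlr9 did (Spearman's rho = 0.07 over 8 libraries).

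Unc93b1 escorts the endosomal receptors out of the endoplasmic reticulum (chromosome 19, 3935186 to 3949340, plus strand). It had 116, 174, 163 and 205 CPM in HFD and 161, 176, 162 and 161 CPM in CF replicates 1 to 4. The CF libraries lay within 1.09-fold of each other, while the HFD libraries spanned 1.77-fold on both sides of them. The log2 fold change was -0.0041 ± 0.16 (edgeR, adjusted p = 0.999). As for Tlr9, HFD replicate 1 was the lowest library, and without it the value was 0.13 (adjusted p = 0.63, with a range of 0.62 to 0.99994 over the alternatives).

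DC markers were summed in the same libraries. The summed CPM of 9 detected plasmacytoid DC markers of 10, led by Runx2, was 355 in HFD replicate 1, 620 to 825 in HFD replicates 2 to 4 and 451 to 518 in CF. That of 10 conventional DC markers, led by Wdfy4, was 304, 518 to 673 and 651 to 897. Of single markers, 9 of 10 for conventional DCs and 2 of 9 for plasmacytoid DCs were lowest in HFD replicate 1. The plasmacytoid DC sum rested on Runx2, without which it was 204 in HFD replicate 1, 335 to 482 in HFD replicates 2 to 4 and 198 to 257 in CF, so that this library lay within CF. All 9 plasmacytoid DC markers had a log2 fold change above 0 and 6 were higher at an unadjusted p below 0.05, against 3.22% of all genes and 3.71% of protein-coding ones, but none was called by edgeR (lowest adjusted p = 0.097). Siglech, named after its values were seen, had 13.3 CPM in HFD replicate 1, 33.0 to 62.2 in HFD replicates 2 to 4 and 13.02 to 17.1 in CF. Spib, Ccr9 and Pacsin1, also named after their values were seen, had 27.1, 5.13 and 2.89 CPM in HFD replicate 1. All were above their highest CF library, at 23.2, 4.80 and 2.67 CPM, so single markers placed HFD replicate 1 differently. Of 10 conventional DC markers, 9 had a log2 fold change below 0 and 2, H2-Aa and H2-Ab1 of MHC class II, were lower at an unadjusted p below 0.05 (-1.19 and -1.21), against 5.34% of all genes and 1.67% of protein-coding ones. They too were named after their values were seen, and none of the 10 was called by edgeR (lowest adjusted p = 0.27). For both lists, the part of these cells in the levels of Tlr9 and Unc93b1 was not tested.

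The sums of other lists were also highest in HFD replicate 1, though not always through all of their genes. B cell markers (11 genes, led by Ighm) summed to 1314 CPM in it, 472 to 667 in HFD replicates 2 to 4 and 326 to 561 in CF, with 5 of 11 highest in it. Without Ighm and Igkc the B cell sums were 113, 51.9 to 118 and 52.8 to 84.4. Erythroid markers (10 genes, led by Car2) summed to 611, 94.6 to 141 and 93.0 to 150, with all 10 highest in HFD replicate 1. Tissue macrophage markers (7 tested of 10, led by Vcam1) summed to 73.4, 4.64 to 26.2 and 10.0 to 40.2, with 6 of 7 highest in it, C1qb and Mertk at 0 in HFD replicate 3, CF replicate 1 and CF replicate 4, and C1qc at 0 in CF replicate 1. T and NK cell markers (5 tested of 10, led by Nkg7) summed to 30.4 CPM in it, 12.3 to 17.7 in HFD replicates 2 to 4 and 13.5 to 22.5 in CF, with 2 of 5 highest in it and Cd3d at 0 in CF replicate 1. Between the diets, 10 of 11 B cell markers had a log2 fold change above 0 and 6 were higher at an unadjusted p below 0.05 (lowest edgeR adjusted p = 0.17), where 40.3% of all genes were below 0 and 3.22% of all genes and 3.71% of protein-coding ones were higher at that threshold. In each of the erythroid and T and NK cell lists 1 marker was higher at it, and none of the tissue macrophage markers was. Of the markers tested in these 4 lists none was called by edgeR.

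Levels of different members were compared per length, as CPM per kb of annotated exons. In CF, Unc93b1 was the highest at 54.4 ± 2.43 CPM per kb, 5.72-fold above Tlr9 at 9.52 ± 2.05 (SD, n = 4 each). Tlr13 at 4.66 ± 1.56 and Tlr2 at 4.56 ± 1.63 followed, then Tlr7 at 2.57 ± 1.52. The lowest levels per length were those of Tlr1 (1.47 ± 0.13), Ly96 (1.27 ± 0.52), Tlr4 (1.25 ± 0.52), Tlr6 (1.17 ± 0.21) and Cd14 (0.53 ± 0.32). Neighbours in this order whose CF libraries did not overlap were Unc93b1 and Tlr9, Tlr9 and Tlr13, and Tlr6 and Cd14, and the other neighbours overlapped. In HFD, Unc93b1 (54.3 ± 12.2) and Tlr9 (10.1 ± 3.69) again led, but of all neighbours only these 2 did not overlap. Tlr1, sixth in CF, was eighth in HFD at 1.03 ± 0.17, but sixth again without HFD replicate 1 (1.00 ± 0.19, n = 3), where Tlr4 was ninth at 0.55 ± 0.17. Of the 10 members, 5 kept their rank in HFD without that library, a check chosen after seeing the data, and Unc93b1 (59.6 ± 7.21) and Tlr9 (11.6 ± 2.53) still led. The chaperone and the CpG receptor were thus the leading members per length under both diets.

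**Figure D4:**
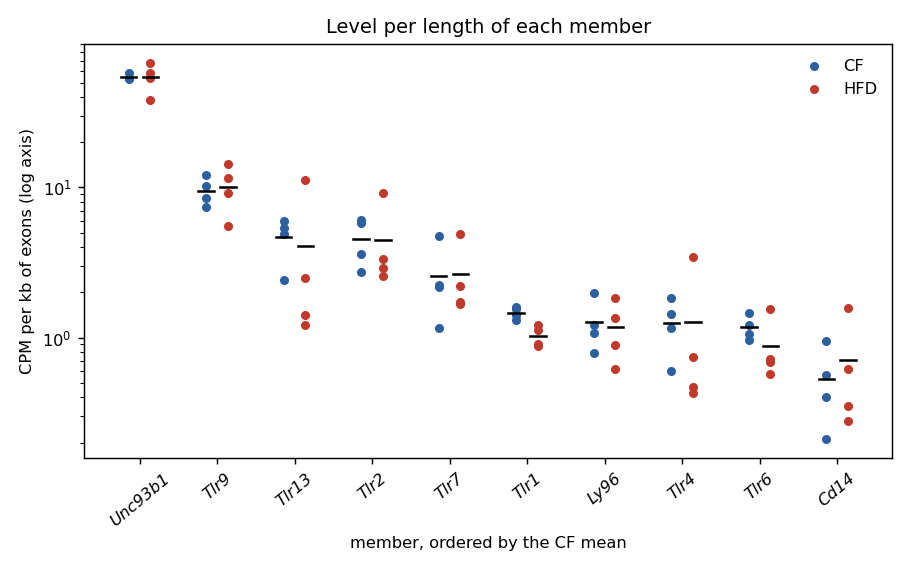
Level of each member in CPM per kb of annotated exons (y axis, log axis) in CF (blue) and HFD (red) libraries, with lines at the mean of 4 replicates; members are ordered by the CF mean. Unc93b1 is highest in each diet, at 54.4 in CF and 54.3 in HFD, and Cd14 lowest, at 0.53 and 0.71.

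Members differed in which other members they varied with. Over the 8 libraries, the log2 CPM of Tlr4 correlated with those of Tlr13 (Pearson's r = 0.98), Tlr2 (0.97) and Tlr6 (0.90), and of Tlr6 with Tlr13 (0.95). Without HFD replicate 1, these values were 0.97, 0.94, 0.88 and 0.93. Tlr9 and Unc93b1 had r = 0.82, which was 0.57 without HFD replicate 1, and Unc93b1 ran against Tlr4 (r = -0.72, and -0.34 without HFD replicate 1). Tlr1 had r = 0.60 with Tlr13, which was 0.91 without HFD replicate 1. These are descriptions over 8 libraries that share their depth and cell makeup between genes, and no p was computed.

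The protein-coding genes most like each member over the 8 libraries, by Pearson's r of log2 CPM, were named next. By Spearman's rho, 2 of the 20 would have been named again. Without HFD replicate 1 the r values below ran from 0.90 to 0.997. Fas (r = 0.998) and Mxd1 (0.995) were nearest to Tlr13, Ankrd22 (0.99) and Ccr1 (0.99) to Tlr4, and Tnfrsf1a (0.99) and Nadk (0.98) to Tlr2. Mxd1 had 306 CPM in HFD replicate 1 and 22.01 to 46.6 in HFD replicates 2 to 4, and Ccr1 had 67.6 and 6.19 to 14.8. Ddit3 and Nfkbiz (0.98 each) were nearest to Tlr6, Eps8 and Shisa5 (0.97 each) to Tlr1, Gna13 and Xkr5 (0.96 each) to Cd14, and Mtmr12 (0.97) and Msr1 (0.96) to Ly96. Sept9 and Plekho1 (0.99 each) were nearest to Unc93b1, Sema4d and Vhl (0.95 each) to Tlr9, and Gcfc2 (0.96) and Ppfia1 (0.95) to Tlr7. None of these 20 genes was called between the diets by edgeR, and Eps8 had the lowest adjusted p (log2 fold change -0.61, adjusted p = 0.16).

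Further genes of the pathway were described by role in 8 lists, of which 88 of 99 genes were tested. In edgeR none was called. At an unadjusted p below 0.05, 8 (9.09%) were lower and 3 (3.41%) higher in HFD, against 5.34% and 3.22% of all genes and 1.67% and 3.71% of protein-coding ones, and the medians of the lists lay between -0.44 and 0.13 except for the list of induced targets. DESeq2 called Rab7b lower and Pik3ap1 higher, and limma voom called none. Without HFD replicate 1, edgeR called Dusp1, Tnf and Ptgs2 lower, and without CF replicate 1 as well it also called Ube2v1, Nfkbiz, Il1b and Plaur lower. Over all genes, 1.05% and 2.21% were called lower in these fits. All 7 were named after their values were seen. In each of them HFD replicate 1 was the highest HFD library and CF replicate 1 the lowest CF library. In the 6 libraries of the second fit the neutrophil sums lay at 981 to 3651 in HFD and 6085 to 6700.3 in CF, and the part of these cells in the 7 genes was not tested. Il1b, which encodes interleukin-1 beta, had 23.6 CPM in HFD replicate 1, 1.97 to 3.91 in HFD replicates 2 to 4, 5.94 in CF replicate 1 and 31.3 to 41.6 in CF replicates 2 to 4.

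Of the 5 other Toll-like receptors, 4 had a log2 fold change below 0, with a median of -0.44. Tlr11, a receptor for profilin-like proteins of parasites, had 0.58, 2.23, 6.64 and 3.64 CPM in HFD and 13.7, 7.19, 7.62 and 6.39 CPM in CF replicates 1 to 4. The highest HFD library lay just above the lowest CF library, and the log2 fold change was -1.41 ± 0.60 (edgeR, unadjusted p = 0.046, adjusted p = 0.57). Tlr3, the receptor for double-stranded RNA, differed by -1.12 ± 0.57 (edgeR, adjusted p = 0.69). Both were lowest in HFD replicate 1 and highest in CF replicate 1, whereas Tlr4 and Tlr13 were highest in HFD replicate 1. Tlr3 gave the same order of libraries as the summed CPM of conventional DC markers, and Tlr11 the same except for CF replicates 2 and 3. The part of these cells in the levels of Tlr3 and Tlr11 was not tested. Of 6 surface partners, 5 were above 0 and none passed, with Ly86, the MD-1 protein that pairs with CD180, at 0.12 ± 0.26 and the lipopolysaccharide-binding protein Lbp at 0.29 ± 0.68 (edgeR, adjusted p = 0.96 for each).

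Among chaperones, transport proteins and endosomal proteases, 8 of 15 tested were above 0 and 7 below, with a median of 0.01. Rab7b, a late endosomal GTPase that promotes breakdown of Tlr4 and Tlr9, had 4.56, 9.41, 10.8 and 9.39 CPM in HFD and 25.1, 11.2, 18.5 and 17.6 CPM in CF replicates 1 to 4. Every HFD library lay below every CF library, and the log2 fold change was -1.09 ± 0.31 (edgeR, adjusted p = 0.21). The proteases Ctsb and Ctsl, which cut endosomal receptors into their active form, differed the other way, by 0.58 ± 0.18 and 0.63 ± 0.24 (edgeR, adjusted p = 0.28 and 0.45). Ctsl was named after its values were seen.

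Of 5 adaptor genes tested, Pik3ap1, which links receptors to phosphoinositide 3-kinase and is also known as BCAP, had 39.7, 42.8, 39.0 and 43.1 CPM in HFD and 28.9, 30.3, 32.5 and 30.6 CPM in CF replicates 1 to 4. Every HFD library lay above every CF library, including HFD replicate 1. The log2 fold change was 0.43 ± 0.09 and missed the threshold (edgeR, adjusted p = 0.088). Ticam1 (TRIF), the adaptor of Tlr3, had -0.13 ± 0.19 (edgeR, adjusted p = 0.93). The list of 20 kinases and ubiquitin enzymes had a median of 0.07, with 12 above 0, and its lowest p-values were those of the I-kappa-B kinase gene Ikbkb (-0.23 ± 0.10) and of Irak2 (0.53 ± 0.25), with edgeR adjusted p of 0.60 and 0.63.

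Of 10 transcription factors, Rel, the NF-kB subunit c-Rel, had all HFD libraries (50.6 to 61.1 CPM) below all CF libraries (63.0 to 70.8), a log2 difference of -0.26 ± 0.10 (edgeR, adjusted p = 0.44). Irf5, an interferon regulatory factor downstream of MyD88, had -0.43 ± 0.24 (edgeR, adjusted p = 0.74). Of 16 inhibitors, 9 were above 0, and the lowest p-values were those of Tnip3, an inhibitor of NF-kB (-1.07 ± 0.44), and of Atf3, a repressor of cytokine genes (-1.94 ± 0.93), with edgeR adjusted p of 0.51 and 0.66. Neither was above 6.05 CPM in a library.

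Among genes known to be induced by Toll-like receptor ligands, 10 of 11 tested were below 0, where 40.3% of all genes and 35.4% of protein-coding ones were, and the median was -1.02. At an unadjusted p below 0.05, 4 of 11 were lower (36.4%, against 5.34% and 1.67%), but none passed adjustment. Beside these values, the summed CPM of conventional DC markers was 304 to 673 in HFD libraries and 651 to 897 in CF libraries. The neutrophil sums were 20909.8 in HFD replicate 1 and 981 to 3651 in HFD replicates 2 to 4. In CF they were 1994 in replicate 1 and 6085 to 6700.3 in replicates 2 to 4, so over all libraries the diets overlapped. The part of either cell type in this list was not tested. The maturation marker Cd83 had 2.09, 1.29, 1.78 and 2.01 CPM in HFD and 4.29, 2.45, 3.50 and 2.73 CPM in CF replicates 1 to 4. Its diets did not overlap, and the log2 fold change was -0.85 ± 0.25 (edgeR, adjusted p = 0.24). The chemokine genes Ccl4 (-1.09 ± 0.38), Ccl3 (-1.02 ± 0.38) and Ccl5 (-1.03 ± 0.41) had edgeR adjusted p of 0.37 to 0.50, and the last pair was named after its values were seen. The list was written from ligand responses of mature cells, and no ligand was given in this design.

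**Figure D5:**
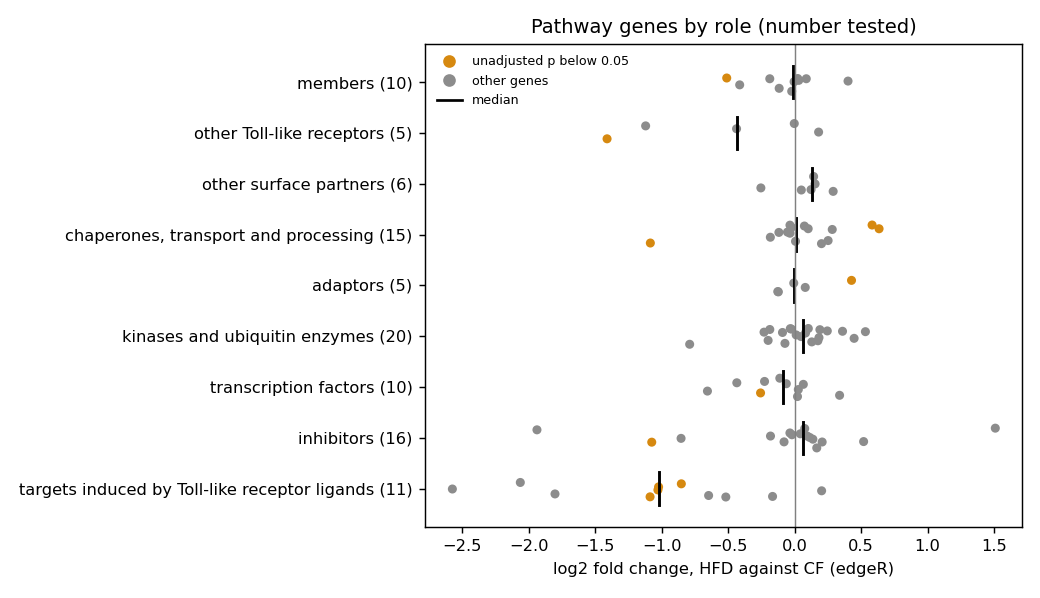
Log2 fold change, HFD against CF (x axis, edgeR), of the members and of the genes tested in 8 pathway lists (1 point each, orange for an unadjusted p below 0.05), with the median of each list as a black line. The targets have a median of -1.02 and the members of -0.01, and no gene shown passed adjustment.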

How the data were processed

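The authors deposited raw counts per gene for 8 libraries. The submitters' notes name FastQC, cutadapt, HISAT2, StringTie and GRCm38, and the methods state alignment by HISAT2, uniquely mapped pairs and StringTie; whether counting used strand is not given in the sources used here. No gene had a highest count under 29. Columns were matched to replicates by their S number. Identifiers were matched to GENCODE vM21 (16067 of 16119).

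The diets were compared in edgeR 4.0.16 under R 4.3.3 (filterByExpr, TMM, robust quasi-likelihood test, diet as the only term; threshold 0.05). SE was taken from the F statistic, and log2 CPM used a prior count of 2. Alternatives were RLE factors, library size alone, DESeq2 1.42.0, limma 3.58.1 (voom, voom with quality weights, log2(CPM + 1)), no filter, 1 CPM in 4 libraries, protein-coding genes alone, a replicate block, each library left out, and HFD replicate 1 and CF replicate 1 left out together. Marker sums without leading genes, and levels per length without HFD replicate 1, were added after seeing the data. Tests were first tried on simulated data. Promoter searches used Python 3.11.15 and plots matplotlib 3.10.9.

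The members and lists were chosen with earlier results of these data known. Named are all members, the 2 lowest p-values of each pathway list and any gene called with all libraries in edgeR, the 2 genes most like each member, the leading gene of each marker list and markers at 0, and 4 sort markers.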

Additional observations from a re-analysis of the deposited data

Results flagged for a closer look

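Of 20 groups of 4 libraries, 6 held a library far from the other 3 by Dixon's test, where chance gives about 1 in 20 for independent groups. The share over all genes was not computed, so an excess among the members cannot be read from this count. HFD replicate 1 stood apart in 4 members: Tlr2 at 27.6 CPM (others 7.79 to 10.0), Tlr4 at 19.2 (2.39 to 4.15), Tlr6 at 5.81 (2.14 to 2.67) and Tlr13 at 48.4 (5.22 to 10.8). These 4 members varied together (Pearson's r from 0.81 to 0.98 over the 8 libraries), so their flags are not independent. HFD replicate 1 was the highest library for 4193 of all 15837 genes. HFD replicate 2 stood apart in Tlr7, at 20.04 CPM against 6.87 to 8.97 in the other HFD libraries. CF replicate 2 stood apart in Unc93b1, at 176 CPM against 161 to 162, where the other 3 lay very close together.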

How the results depend on the processing

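Members called were 0 in 18 of 19 alternatives, and 2, Tlr4 (-1.42) and Tlr13 (-1.66), both lower, without HFD replicate 1 and CF replicate 1, where 350 of 15827 genes (2.21%) were called lower. For both genes this pair was the highest HFD and the lowest CF library. Tlr13 had no adjusted p in DESeq2. With each library left out in turn, the log2 fold changes ran from -0.63 to 0.17 for Tlr2, -1.19 to 0.31 for Tlr4, -0.46 to 0.51 for Tlr7, -0.12 to 0.29 for Tlr9, -1.45 to 0.10 for Tlr13, -0.17 to 0.13 for Unc93b1, -0.36 to 0.84 for Cd14 and -0.41 to 0.18 for Ly96, so that each crossed 0. Tlr1 and Tlr6 stayed below 0 in every alternative. Other values across 0 from the reported ones were those of Tlr2 (0.15), Unc93b1 (0.20) and Ly96 (0.063) with library size alone; of Tlr4 with voom (-0.48), with log2(CPM + 1) (-0.33) and with protein-coding genes alone (-0.025, and Tlr7 -0.013); of Tlr4 (-1.11), Unc93b1 (0.038) and Cd14 (-0.22) with quality weights; and of Unc93b1 (0.12) and Cd14 (-0.47) without HFD replicate 1 and CF replicate 1. The cause was not tested.

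Genes called, lower and higher in HFD, were 67 and 0 as reported, 98 and 10 with library size alone, 498 and 71 with DESeq2, 260 and 22 with quality weights, 0 and 0 with protein-coding genes alone (252 and 285 before adjustment) and 350 and 38 without HFD replicate 1 and CF replicate 1. With each library left out they ran from 0 to 166 and from 0 to 34: 166 and 34 without HFD replicate 1, 1 and 0 without HFD replicate 2, 1 and 1 without HFD replicate 4, 154 and 0 without CF replicate 4, and 0 and 0 without HFD replicate 3 or CF replicate 1, 2 or 3. Pathway genes called were 0 in edgeR as reported, 1 lower and 1 higher in DESeq2, 0 to 3 lower with each library left out, and 7 lower without HFD replicate 1 and CF replicate 1. By Spearman's rho, 2 of the 20 most alike genes were shared with Pearson's r. A filter of 1 CPM in 4 libraries left out Cd14. With longest transcripts as lengths, 7 of the 10 members kept their rank per length in CF, and 8 with medians.

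Same-numbered libraries did not deviate together (r = -0.44, -0.08, -0.23 and -0.18 for numbers 1 to 4), so the values gave no sign of a pairing. Whether same-numbered replicates were handled together is not given in the sources used here. With the replicate number as a block, 0 genes were called in either direction (675 and 236 at p below 0.05 without adjustment), no member passed, and Tlr4 was at -0.61. Counts were lowest for Cd14 (14 to 85) and Ly96 (26 to 64), whose SE of 0.64 and 0.41 were below those of Tlr4 and Tlr13 (0.70 each).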
